A study of Homo sapiens with 18 samples.

Results

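The 37 transcripts encoded by the mitochondrial genome were followed in 18 RNA-seq libraries of RPE1, an established human line of retinal pigment epithelium immortalised with telomerase. They were all rows of the deposited gene table whose symbol begins with MT-, 37 of 57773 rows, and comprise 13 protein-coding genes, 2 ribosomal RNAs and 22 transfer RNAs. Each of 6 groups held 3 biological replicates: cytochalasin D 4N cells, cytochalasin D 2N cells, ZM447439 4N cells, ZM447439 2N cells, untreated 4N cells and untreated 2N cells. Cytochalasin D blocks actin assembly, and ZM447439 inhibits Aurora kinases; both can make a cell fail to divide and become tetraploid. The treatment text shared by the libraries gives 2.5 µM ZM447439 for 24 h; of cytochalasin D it states neither concentration nor duration. The DNA stain in all 6 groups was Hoechst (2 µg/mL, 60 min; 10% serum in the medium), and cells were sorted through a 2N and a 4N gate. A 4N gate holds diploid cells in G2 or mitosis as well as tetraploid cells in G1, so it is a mixture, and its make-up in each group was not measured here. All groups are 1 cell line, and the libraries were made from poly(A) RNA with a kit that does not keep the strand.

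As background, the mitochondrial genome is a small circle present in many copies per cell. Each strand is transcribed as long precursors, which are cut mostly at the tRNAs that lie between the other genes. Most of the released mRNAs, and the rRNAs, then receive short poly(A) tails. The coding genes make core subunits of respiratory complexes I, III and IV and of the ATP synthase, and the rRNAs and tRNAs serve the mitochondrial ribosome that translates them; every other protein of the organelle is imported. Most genes lie on one strand, here called heavy-strand transcripts. MT-ND6 and 8 of the 22 tRNAs come from the other, light-strand, transcript.

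Among the members that rose in both sorts under cytochalasin D, those of largest deposited log2 change with all libraries were 4 neighbouring light-strand tRNAs, for alanine (MT-TA), asparagine (MT-TN), cysteine (MT-TC) and tyrosine (MT-TY). In 2N cells MT-TF, which did not pass in 4N cells, rose by 0.96, within the range of these 4. The 4 follow MT-TW in the stretch between MT-ND2, which passed the test under neither drug with all libraries, and MT-CO1, the coding gene of the largest change under cytochalasin D, and are coded on the strand opposite to both. Their sequences, written as DNA from the GENCODE 29 transcripts of GRCh38, are shown for that reason, 5′ to 3′ as in the light-strand transcript, with the anticodon in capitals.
MT-TA: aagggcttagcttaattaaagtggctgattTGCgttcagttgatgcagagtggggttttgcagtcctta
MT-TN: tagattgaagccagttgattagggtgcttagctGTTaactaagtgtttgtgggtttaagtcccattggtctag
MT-TC: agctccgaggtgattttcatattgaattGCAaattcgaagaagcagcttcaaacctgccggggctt
MT-TY: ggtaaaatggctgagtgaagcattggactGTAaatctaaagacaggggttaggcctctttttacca
They are 69, 73, 66 and 66 bases long. Mature tRNAs carry no poly(A) tail, and without strand a read over these genes cannot be told from one of uncut heavy-strand RNA that runs through them. Their values are therefore given as reads over the tRNA positions, and the same limit of strand holds for the other light-strand members.

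Levels are in RPKM, reads scaled to gene length and library size, as deposited, so each value is relative to its library. A change in the number of mitochondria or in the mix of cells, and a change in the RNA of each, cannot be told apart in these bulk samples. By RPKM the members were among the highest rows: 6 of the 10 genes of highest mean, and 12 of the highest 20, were mitochondrial. Read numbers were recovered with the full span of a gene, introns included, as its length. Such a length lowers the RPKM of nuclear genes with introns, so these ranks, and any threshold on RPKM, depend on it. Over the 18 libraries the coding genes had mean levels between 846 RPKM (MT-ND5) and 4114 RPKM (MT-CO2), and the rRNAs had 1277 RPKM (MT-RNR2) and 745 RPKM (MT-RNR1). Both rRNAs carry only short tails, and a poly(A) selection does not measure them as it measures mRNAs. Among the tRNAs, 7 reached a mean of 100 RPKM, and 6 of these lie on the light strand. MT-TN had 683 RPKM, MT-TS1 678 RPKM and MT-TC 669.5 RPKM, the 3 highest, and the median level was 652 RPKM over the 8 light-strand tRNAs and 24.0 RPKM over the 14 heavy-strand ones. At the low end, 11 tRNAs had under 100 reads in at least 1 library, with 14 reads as the lowest value. Whole read numbers could be recovered for 666 of 666 member values within a tolerance of 0.05 reads, and a library held between 1162588 and 2280787 member reads.

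Few listed markers of native retinal pigment epithelium passed the filter on low values, 3 of 12 (BEST1, OTX2 and PMEL). So did 2 of 4 epithelial, 3 of 4 mesenchymal and 0 of 5 blood markers. With such lengths the filter is harder to pass for genes with long introns. In 6 libraries (untreated replicate 3, cytochalasin D replicate 1 and ZM447439 replicate 1, in both sorts) the tested genes deviated more from their group mean than in the rest, with an SD of 0.159 to 0.214 log2 units, against 0.111 to 0.144 in the other 12. Results rest on all 18 libraries, and values without these 6, which leave 2 libraries a group, are given beside them where stated. As these 6 had the largest deviations in the same data, leaving them out narrows the spread within groups. Calls and adjusted p-values without them are therefore too lenient and are given as description only. As deposited, the typical gene of the drug groups stood at -0.16 (cytochalasin D 4N), -0.11 (cytochalasin D 2N), -0.10 (ZM447439 4N) and -0.06 (ZM447439 2N) log2 units relative to untreated cells of the same sort. Rescaling each library to its median gene sets this to 0 and shifts every member by the same amount, so counts of members are given on both the deposited and the median-rescaled scale, and a change with no scale named is on the deposited one. The comparisons of both drugs within a sort share the same untreated libraries.

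Of the recovered reads, the 37 members made up a larger part in each drug-treated library than in any untreated library of its sort. The means were 1.25 to 1.35 times as high, and in 4N cells this separation depended on the denominator. The member share of recovered reads was 2.63%, 3.28% and 3.42% in cytochalasin D 4N cells and 3.18%, 2.76% and 2.71% in ZM447439 4N cells, against 2.21%, 2.54% and 2.18% in untreated 4N cells. In 2N cells it was 3.12%, 3.11% and 3.35% under cytochalasin D and 2.88%, 3.29% and 2.97% under ZM447439, against 2.40%, 2.24% and 2.54% in untreated cells. The lowest drug-treated libraries were cytochalasin D 4N replicate 1 and ZM447439 4N replicate 3, and neither reached down to the untreated range. The mean share was 1.35 times (cytochalasin D 4N), 1.33 times (cytochalasin D 2N), 1.25 times (ZM447439 4N) and 1.27 times (ZM447439 2N) that of untreated cells of the same sort. The two-sided exact permutation p was 0.1 in each comparison, the smallest that 3 against 3 can give, so none can pass 0.05. With those 6 left out, the ratios were 1.41, 1.39, 1.15 and 1.35 in the same order, and the groups stayed apart. For the coding genes alone the cytochalasin D 4N libraries overlapped with the untreated ones (exact permutation p = 0.2). In untreated 4N libraries the summed reads were 1.09 to 1.13 times the size by which the deposited values appear to have been scaled. In drug-treated 4N libraries they were 0.972 to 1.05 times that size. Set against that size in place of the summed reads, the shares of the 4N groups overlapped. Untreated 4N replicate 2 then had 2.80% and cytochalasin D 4N replicate 1 had 2.76%. The ratio was 1.23 for cytochalasin D (exact permutation p = 0.2) and 1.12 for ZM447439 (exact permutation p = 0.3), while both 2N comparisons stayed at 0.1. Between 4N and 2N cells of the same treatment the shares overlapped, with exact permutation p of 0.9 under cytochalasin D, 0.5 under ZM447439 and 0.6 in untreated cells. Over the remaining 12 libraries, the ZM447439 shares were apart, with a mean of 2.74% in 4N cells, against 3.13% in 2N cells.

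**Figure D1:**
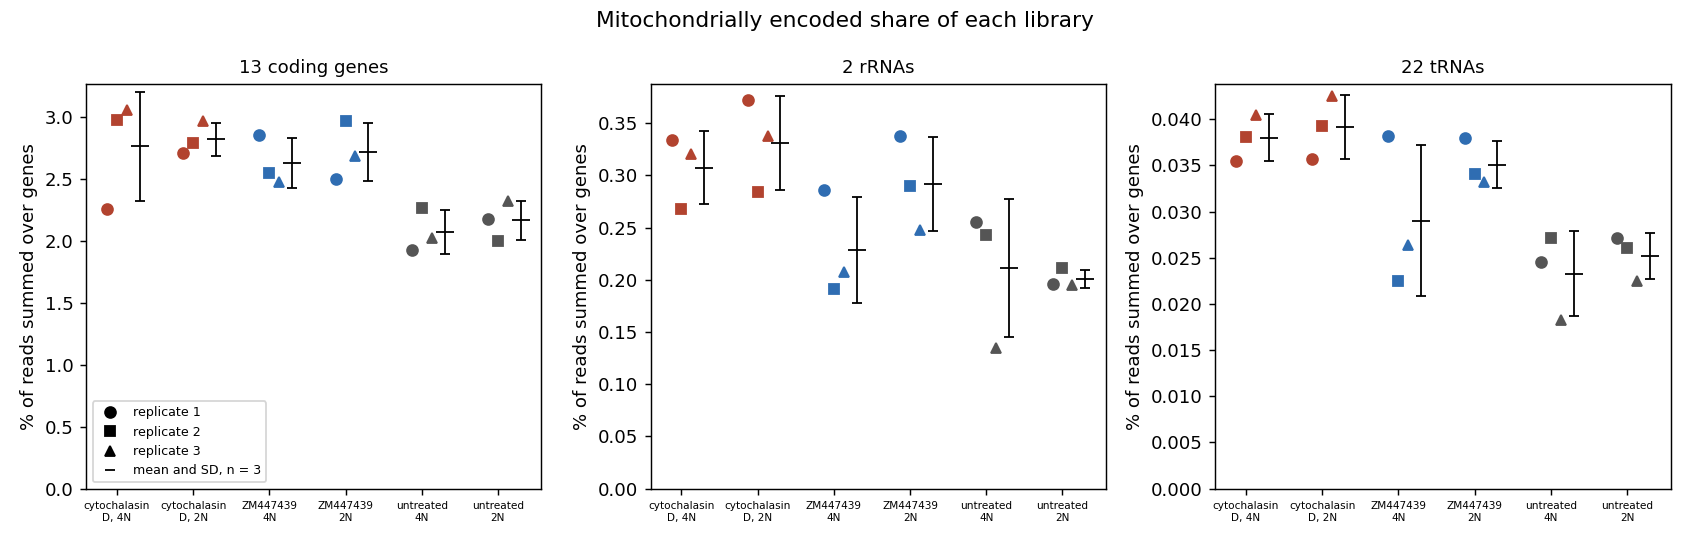
Share of each library's recovered reads, in percent, from the 13 coding genes, the 2 rRNAs and the 22 tRNAs, with 1 point per library shaped by replicate, and the group mean with its SD. In coding genes the means are 2.77% and 2.63% in cytochalasin D and ZM447439 4N cells, against 2.07% in untreated 4N cells, and 2.82% and 2.72% in the drug-treated 2N cells, against 2.17% in untreated 2N cells; the rRNA and tRNA points of ZM447439 4N cells overlap with the untreated ones.

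Gene by gene, more members rose than fell under both drugs, while among all genes tested more fell than rose on the deposited scale. The limma test was run on log2(RPKM + 0.5) over the 13037 genes that averaged 0.5 RPKM or more across libraries, which included all 37 members, and a gene was called at an adjusted p under 0.05. In cytochalasin D 4N cells 10 of 37 members rose and 1 fell against untreated 4N cells, where 26.1% of all genes tested rose and 44.4% fell; on the median-rescaled scale 18 rose and 0 fell, against 34.1% and 35% of all genes. In cytochalasin D 2N cells 19 rose and 0 fell, against 27.1% and 39.5% of all genes, and 22 rose on the rescaled scale, against 33.6% (33.1% of all genes fell there). In ZM447439 4N cells 5 rose and 0 fell, against 19.6% and 35.5% of all genes, and 6 rose on the rescaled scale, against 25.8% (28.1% fell). In ZM447439 2N cells 11 rose and 0 fell, against 23.6% and 32.5% of all genes, and 16 rose on the rescaled scale, against 28.2% (28.3% fell). On the deposited scale the number of members that rose was thus close to the background in cytochalasin D 4N cells, below it in ZM447439 4N cells and above it in both 2N comparisons, and the number that fell was below it in all 4. The median deposited log2 change of the members was 0.22, 0.30, 0.16 and 0.40 in cytochalasin D 4N, cytochalasin D 2N, ZM447439 4N and ZM447439 2N cells, and that of all genes tested was -0.13, -0.08, -0.07 and -0.04 in the same order.

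The counts depended on single libraries, most of all in 4N cells. Without the 6 libraries that stood apart, 16 members rose and 1 fell in cytochalasin D 4N cells (29.5% and 47.4% of all genes), 23 rose in cytochalasin D 2N cells (32.1% of all genes) and 25 rose in ZM447439 2N cells (32.3%). In ZM447439 4N cells 7 rose and 6 fell without them (25.5% and 40% of all genes); those that fell were MT-RNR2, MT-TA, MT-TN, MT-TC, MT-TY and MT-TR. Leaving out untreated 4N replicate 3 alone brought the cytochalasin D 4N calls to 7 (5 rose and 2 fell), and leaving out cytochalasin D 4N replicate 1 brought them to 16. The lowest counts in 2N cells were 13 under cytochalasin D, without untreated 2N replicate 2, and 8 under ZM447439, without ZM447439 2N replicate 2. In ZM447439 4N cells they were 1 without untreated 4N replicate 1, 3 without untreated 4N replicate 2, and 2 without ZM447439 4N replicate 1 or replicate 2.

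Of the 3 subunits of complex IV, cytochrome c oxidase, 2 rose in cytochalasin D 4N, 3 in cytochalasin D 2N, 2 in ZM447439 4N and 3 in ZM447439 2N cells as deposited, and 3 in each on the rescaled scale. Of all genes tested 26.1%, 27.1%, 19.6% and 23.6% rose in the same order as deposited, and 34.1%, 33.6%, 25.8% and 28.2% rescaled. MT-CO1, which carries the oxygen-reducing centre, had 4092, 4520.5 and 4903 RPKM in cytochalasin D 4N cells and 4657, 3520.4 and 3504 RPKM in ZM447439 4N cells, against 2785, 3319.8 and 2995 RPKM in untreated 4N cells. In 2N cells MT-CO1 had 5007, 4514 and 5103 RPKM under cytochalasin D and 4238, 4644 and 4324 RPKM under ZM447439, against 2859.9, 2697 and 3308 RPKM in untreated cells. Every drug-treated library of MT-CO1 was above every untreated library of its sort. Its log2 change under cytochalasin D was 0.57 (SE 0.11, limma adjusted p = 4.01e-04) in 4N cells and 0.73 (SE 0.11, limma adjusted p = 5.18e-05) in 2N cells on the deposited scale, and 0.73 and 0.83 on the rescaled scale. Under ZM447439 it was 0.35 (SE 0.11, limma adjusted p = 0.0168) in 4N cells and 0.58 (SE 0.11, limma adjusted p = 5.51e-04) in 2N cells, and 0.45 and 0.64 rescaled. In the other 12 libraries, the deposited changes were 0.63 and 0.79 under cytochalasin D and 0.69 in ZM447439 2N cells, each called, and 0.21 in ZM447439 4N cells, not called.

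MT-CO2, the member of highest mean level, whose product takes electrons from cytochrome c, had 3949.6, 5065 and 5084 RPKM in cytochalasin D 4N cells and 4641, 4106 and 3928 RPKM in ZM447439 4N cells, against 3238, 3462 and 3199 RPKM in untreated 4N cells. In 2N cells MT-CO2 had 4850.2, 4932 and 4971 RPKM under cytochalasin D and 3793, 4906 and 4737 RPKM under ZM447439, against 3158, 2712 and 3311 RPKM in untreated cells. It too was higher in each drug-treated library than in any untreated one of its sort. The deposited log2 change of MT-CO2 was 0.50 (SE 0.11, limma adjusted p = 0.00118) and 0.69 (SE 0.11, limma adjusted p = 8.67e-05) under cytochalasin D in 4N and 2N cells, and 0.35 (SE 0.11, limma adjusted p = 0.0164) and 0.55 (SE 0.11, limma adjusted p = 9.25e-04) under ZM447439. Rescaled, it was 0.67, 0.80, 0.45 and 0.61. Once the 6 were left out, all 4 comparisons were called, at 0.60, 0.76, 0.26 and 0.72.

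MT-CO3, the third core subunit, had 2485, 3132 and 3382 RPKM in cytochalasin D 4N cells and 3295, 2744 and 2749.6 RPKM in ZM447439 4N cells, against 2378, 2699 and 2598 RPKM in untreated 4N cells. The first cytochalasin D library fell within the untreated range, and the ZM447439 libraries were above it. In these 4N comparisons MT-CO3 passed on the rescaled scale only, at 0.38 (SE 0.12, adjusted p = 0.00831) under cytochalasin D and 0.29 (SE 0.12, adjusted p = 0.0480) under ZM447439, against 0.22 and 0.19 as deposited. In 2N cells, where its mean was 3037 ± 180.2 RPKM under cytochalasin D and 3194 ± 297 RPKM under ZM447439, against 2474 ± 259.8 RPKM in untreated cells (SD, n = 3 each), MT-CO3 rose on both scales, by 0.30 and 0.37 as deposited and 0.41 and 0.43 rescaled. Without the 6 libraries MT-CO3 rose in cytochalasin D 4N cells as deposited too (0.36), and in ZM447439 4N cells it was 0.12 and not called.

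**Figure D2:**
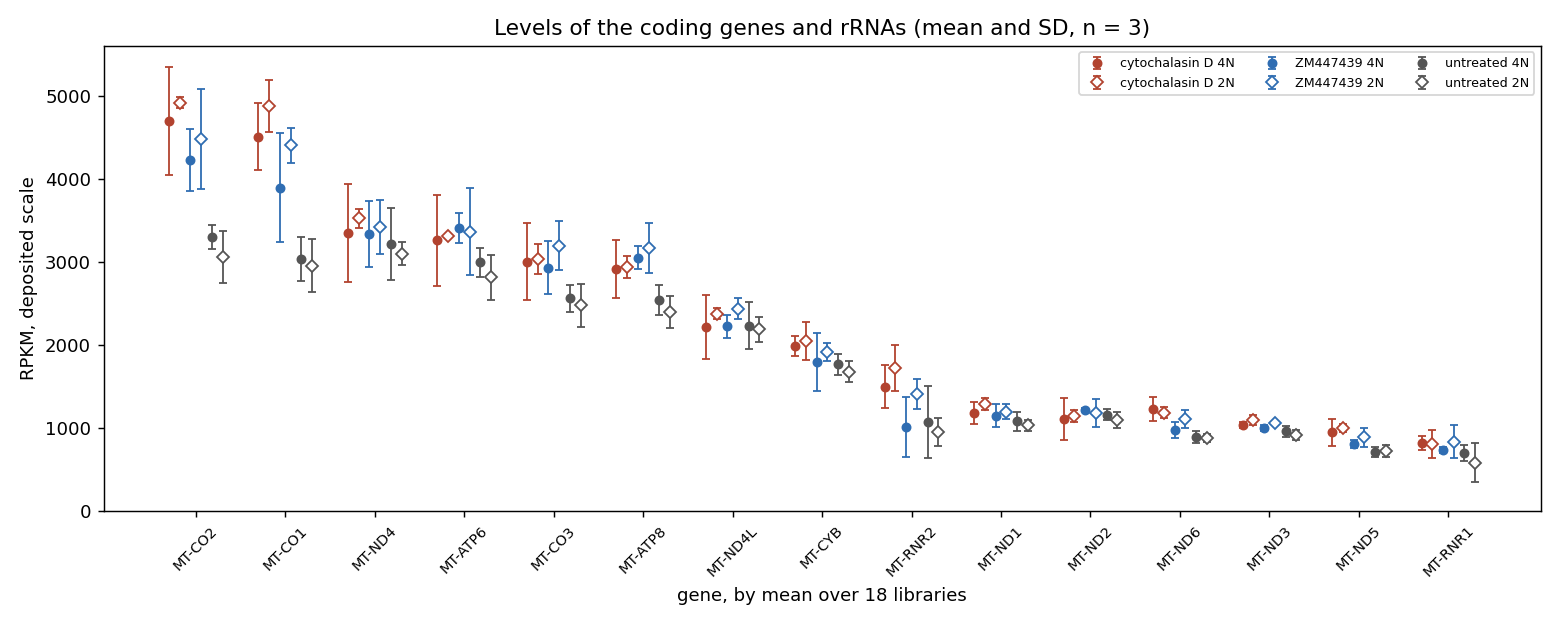
Mean level in RPKM, with SD (n = 3), of the 13 coding genes and 2 rRNAs in the 6 groups, ordered by mean over the 18 libraries, with filled circles for 4N and open diamonds for 2N cells. The untreated means of MT-CO1 and MT-CO2 lie below those of all 4 drug-treated groups, while the bars of MT-ND2 run into each other.

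The 7 subunits of complex I, the NADH dehydrogenase through which electrons enter the chain, changed less evenly. On the deposited scale 2 of 7 rose in cytochalasin D 4N cells, 4 in cytochalasin D 2N cells, 0 in ZM447439 4N cells and 2 in ZM447439 2N cells, and none fell. Rescaled, the counts were 4, 4, 0 and 4, beside the shares of all genes given for complex IV. MT-ND6 is the one coding gene of the light strand, and without strand its reads cannot be told from those of uncut heavy-strand RNA. It had 1059, 1309 and 1307 RPKM in cytochalasin D 4N cells and 1085, 922 and 925 RPKM in ZM447439 4N cells, against 848, 968 and 853 RPKM in untreated 4N cells. In 2N cells MT-ND6 had 1129, 1169 and 1252 RPKM under cytochalasin D and 1092, 1216 and 1004 RPKM under ZM447439, against 866, 837 and 932 RPKM in untreated cells. The libraries overlapped with the untreated ones in ZM447439 4N cells and in no other of these comparisons. Its deposited log2 change was 0.46 (SE 0.10, limma adjusted p = 7.50e-04) and 0.43 (SE 0.10, limma adjusted p = 0.00134) under cytochalasin D in 4N and 2N cells and 0.33 (SE 0.10, limma adjusted p = 0.0110) in ZM447439 2N cells, with 0.62, 0.54 and 0.39 rescaled. In ZM447439 4N cells it was 0.13 (SE 0.10, limma adjusted p = 0.266), and 0.23 rescaled. With those 6 left out, the same 3 comparisons of MT-ND6 were called, at 0.53, 0.51 and 0.38.

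MT-ND5, the coding gene of lowest mean level, had 758, 1059 and 1020.1 RPKM in cytochalasin D 4N cells and 855, 771 and 788 RPKM in ZM447439 4N cells, against 668, 781 and 685 RPKM in untreated 4N cells. In 2N cells it had 969, 971 and 1056 RPKM under cytochalasin D and 780.0, 1006 and 876 RPKM under ZM447439, against 741, 647 and 791 RPKM in untreated cells. The libraries were apart from the untreated ones in cytochalasin D 2N cells only. MT-ND5 rose under cytochalasin D on both scales, by 0.40 in 4N and 0.46 in 2N cells as deposited and 0.56 and 0.57 rescaled. In ZM447439 2N cells the deposited change was 0.29 (SE 0.12, limma adjusted p = 0.0631) and the rescaled one 0.35 (SE 0.12, adjusted p = 0.0253). Neither passed in ZM447439 4N cells, at 0.18 and 0.28. Over the remaining 12 libraries, MT-ND5 was called as deposited in both cytochalasin D comparisons (0.53 and 0.55) and in ZM447439 2N cells (0.44).

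MT-ND1 had 1027, 1284 and 1234 RPKM in cytochalasin D 4N cells, against 1056, 1199.7 and 978 RPKM in untreated 4N cells, and 1141, 1299.9 and 1145 RPKM in ZM447439 2N cells, against 1097, 966 and 1038 RPKM in untreated 2N cells. The 4N groups overlapped and the 2N groups did not. Both changes passed on the rescaled scale only, at 0.30 (SE 0.11, adjusted p = 0.0247) and 0.27 (SE 0.11, adjusted p = 0.0443), against 0.13 and 0.21 as deposited. In cytochalasin D 2N cells, at 1291 ± 74.6 RPKM (SD, n = 3), MT-ND1 rose on both scales, by 0.32 and 0.43, and in ZM447439 4N cells, at 1149 ± 141 RPKM, it passed on neither (0.09 and 0.19). MT-ND3 had 1007, 1028 and 1069 RPKM in cytochalasin D 4N cells, against 943, 1033 and 906 RPKM in untreated 4N cells, groups that overlapped and passed on the rescaled scale only (0.27, SE 0.06, adjusted p = 0.00135, against 0.11 as deposited). It rose on both scales in 2N cells, where it averaged 1094 ± 63.6 RPKM under cytochalasin D and 1057 ± 26.6 RPKM under ZM447439, against 909.6 ± 59.1 RPKM in untreated cells, with deposited changes of 0.27 and 0.22. Its mean was 998 ± 33.3 RPKM in ZM447439 4N cells, where neither scale passed. In the other 12 libraries, both genes rose as deposited in 2N cells, MT-ND1 by 0.28 and 0.24 and MT-ND3 by 0.19 and 0.20 under cytochalasin D and ZM447439, and neither was called in 4N cells.

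The other 3 subunits of complex I passed in none of the 4 comparisons on either scale with all libraries. MT-ND2 averaged 1110.5 ± 252 RPKM (cytochalasin D 4N), 1142 ± 69.5 RPKM (cytochalasin D 2N), 1221 ± 23.0 RPKM (ZM447439 4N) and 1181 ± 172 RPKM (ZM447439 2N), against 1159 ± 69.4 RPKM (untreated 4N) and 1095 ± 91.4 RPKM (untreated 2N; SD, n = 3 each). MT-ND4 averaged 3348 ± 589 RPKM (cytochalasin D 4N), 3522 ± 117 RPKM (cytochalasin D 2N), 3334 ± 400.1 RPKM (ZM447439 4N) and 3421 ± 326 RPKM (ZM447439 2N), against 3213 ± 434 RPKM (untreated 4N) and 3098 ± 136 RPKM (untreated 2N; SD, n = 3 each). MT-ND4L averaged 2219 ± 386 RPKM (cytochalasin D 4N), 2373 ± 66.9 RPKM (cytochalasin D 2N), 2223 ± 142 RPKM (ZM447439 4N) and 2433 ± 127 RPKM (ZM447439 2N), against 2229.6 ± 283 RPKM (untreated 4N) and 2189 ± 149.9 RPKM (untreated 2N; SD, n = 3 each). MT-ND4 and MT-ND4L overlap by 7 bases in 1 transcript. The deposited log2 changes of the 3 genes lay between -0.09 and 0.19, and the rescaled ones between 0.08 and 0.29. Once the 6 were left out, MT-ND2 rose as deposited in ZM447439 2N cells (0.25), and the other deposited changes of the 3 genes were not called.

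MT-CYB, the cytochrome b of complex III, had 1878, 1965 and 2113 RPKM in cytochalasin D 4N cells, against 1685, 1913 and 1692 RPKM in untreated 4N cells. The groups overlapped in 1 cytochalasin D library, and the change passed on the rescaled scale only (0.34, SE 0.12, adjusted p = 0.0215, against 0.17 as deposited). In cytochalasin D 2N cells, at 2048 ± 227 RPKM, against 1679 ± 121 RPKM in untreated 2N cells (SD, n = 3 each), it rose on both scales, by 0.28 and 0.39. Under ZM447439 MT-CYB averaged 1795 ± 351 RPKM in 4N and 1918 ± 110.4 RPKM in 2N cells and passed in neither sort, with deposited changes of 0.01 and 0.19. Without the 6 libraries its one deposited call was again that in cytochalasin D 2N cells (0.25).

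MT-ATP8 and MT-ATP6, membrane subunits of the ATP synthase, share 46 bases and 1 transcript, so reads in the shared stretch cannot be given to either. MT-ATP8 had 2524, 3001 and 3208 RPKM in cytochalasin D 4N cells and 3188, 3047 and 2913 RPKM in ZM447439 4N cells, against 2332, 2643 and 2643 RPKM in untreated 4N cells. The ZM447439 libraries were above the untreated ones and the cytochalasin D libraries overlapped with them. MT-ATP8 rose on both scales in ZM447439 4N (0.27, SE 0.09, limma adjusted p = 0.0272 as deposited), ZM447439 2N (0.40) and cytochalasin D 2N cells (0.30), and on the rescaled scale only in cytochalasin D 4N cells (0.36, SE 0.09, adjusted p = 0.00314, against 0.19). In 2N cells MT-ATP8 averaged 2937 ± 137 RPKM under cytochalasin D and 3169 ± 300.2 RPKM under ZM447439, against 2397 ± 195 RPKM in untreated cells.

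MT-ATP6, whose product forms part of the proton path, had 3326, 3295 and 3314 RPKM in cytochalasin D 2N cells and 2830.4, 3868 and 3394 RPKM in ZM447439 2N cells, against 2801, 2549 and 3083 RPKM in untreated 2N cells. The cytochalasin D libraries were above the untreated ones, and those of ZM447439 overlapped with them. Both changes passed on the rescaled scale only, at 0.35 (SE 0.12, adjusted p = 0.0191) and 0.31 (SE 0.12, adjusted p = 0.0377), against 0.24 and 0.25 as deposited. In 4N cells MT-ATP6 averaged 3257 ± 550.5 RPKM under cytochalasin D and 3402 ± 180.0 RPKM under ZM447439, against 2992 ± 178 RPKM in untreated cells, and passed on neither scale. With those 6 left out, MT-ATP6 rose as deposited in cytochalasin D 4N (0.25), cytochalasin D 2N (0.31) and ZM447439 2N cells (0.44), and MT-ATP8 in all 4 comparisons (0.32, 0.31, 0.26 and 0.49).

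Because all 13 values of a library share 1 denominator, their proportions do not depend on the scaling. MT-CO1 made up 14.4% ± 0.884 of the summed RPKM of the 13 coding genes in cytochalasin D 4N cells, 12.9% ± 0.973 in ZM447439 4N cells and 11.5% ± 0.320 in untreated 4N cells. In 2N cells MT-CO1 made up 14.9% ± 0.658 under cytochalasin D, 13.9% ± 0.547 under ZM447439 and 11.7% ± 0.584 in untreated cells (SD, n = 3 each). All 4 drug groups were apart from their untreated cells, with an exact permutation p of 0.1, the smallest possible. The part of MT-ND2 in the 13 was 0.80, 0.81 and 0.86 times the untreated one in cytochalasin D 4N, cytochalasin D 2N and ZM447439 2N cells, apart from it in each (exact permutation p = 0.1). It was 0.93 times the untreated one in ZM447439 4N cells, where the libraries overlapped (exact permutation p = 0.3). Such changes were not particular to MT-CO1 and MT-ND2. The part of MT-ND4L was 0.84, 0.84, 0.88 and 0.89 times the untreated one (cytochalasin D 4N, cytochalasin D 2N, ZM447439 4N, ZM447439 2N). That of MT-CO2 was 1.20, 1.24, 1.13 and 1.16 times it, and both were apart in each comparison (exact permutation p = 0.1). That of MT-ND4 was 0.87, 0.88, 0.91 and 0.88 times it, with overlap in ZM447439 4N cells only. Over the remaining 12 libraries, the part of MT-CO1 was 1.23, 1.30, 1.09 and 1.20 times the untreated one in cytochalasin D 4N, cytochalasin D 2N, ZM447439 4N and ZM447439 2N cells. That of MT-ND2 was 0.862, 0.833, 0.994 and 0.884 times it.

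MT-CO1 and MT-ND2 are coded on the same strand with the 4 tRNAs printed above between them. The ratio of MT-CO1 to MT-ND2, chosen after the values had been seen, was 4.99, 3.57 and 3.94 in cytochalasin D 4N libraries and 3.79, 2.84 and 2.93 in ZM447439 4N libraries, against 2.56, 2.71 and 2.58 in untreated 4N libraries. In 2N cells the MT-CO1 to MT-ND2 ratio was 4.71, 3.78 and 4.36 under cytochalasin D and 4.24, 3.46 and 3.61 under ZM447439, against 2.50, 2.73 and 2.87 in untreated cells. No untreated library reached the ratio of any drug-treated library of its sort, and cytochalasin D replicate 1, one of the libraries that stood apart, had the highest value of each sort. In the other 12 libraries, the mean ratio was 1.43, 1.56, 1.10 and 1.35 times that of untreated cells of the sort, in the order of groups above.

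**Figure D3:**
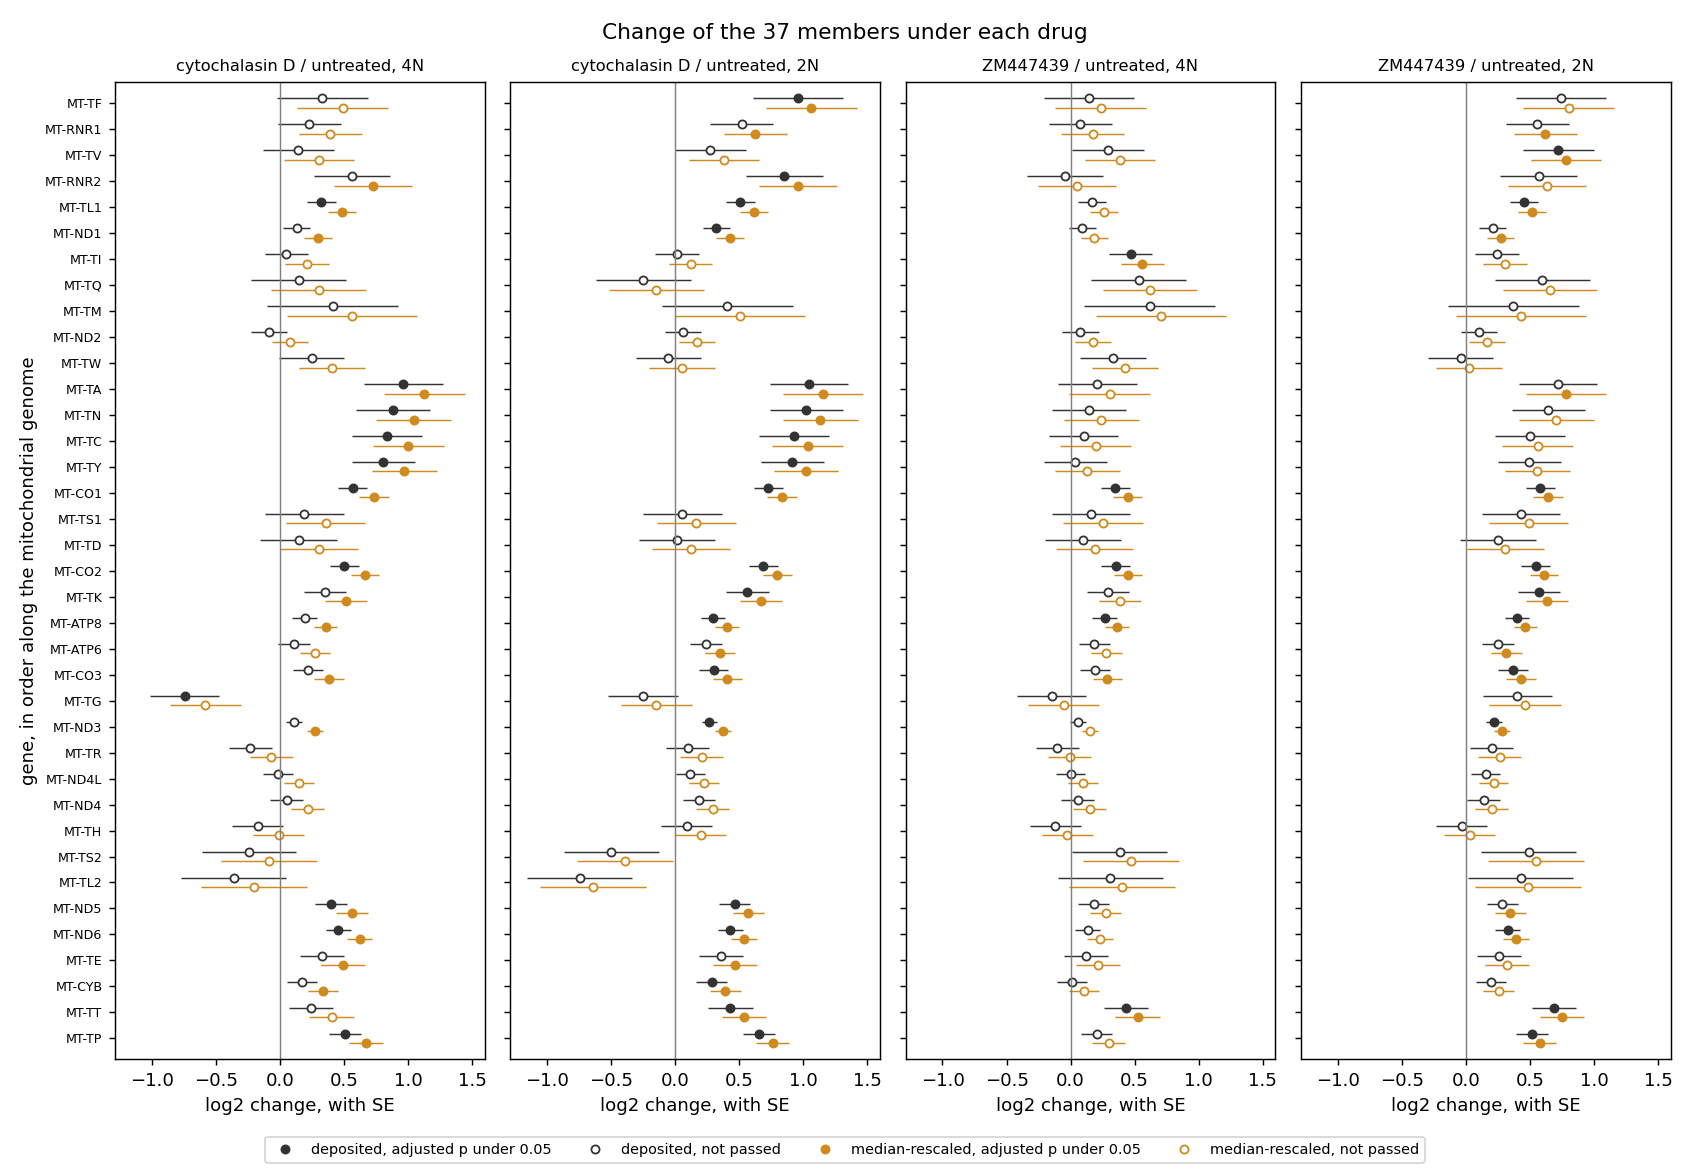
Log2 change against untreated cells of the same sort for the 37 members in order along the mitochondrial genome, with bars of 1 SE, on the deposited and on the median-rescaled scale, for cytochalasin D and ZM447439 in 4N and 2N cells. Filled points passed the test. The rescaled points lie to the right of the deposited ones in all 4 comparisons, and MT-CO1 and MT-CO2 are past the threshold on both scales throughout.

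The rRNAs varied more between replicates than the coding genes. The coefficient of variation within groups averaged between 4.67% and 10.1% for a coding gene, and was 19.0% and 23.3% for the rRNAs; counting error alone gives at most 0.693% for any of these. MT-RNR2, the 16S rRNA of the large ribosomal subunit, had 1756, 1244 and 1486 RPKM in cytochalasin D 4N cells and 1431, 773 and 831 RPKM in ZM447439 4N cells, against 1363, 1281 and 577 RPKM in untreated 4N cells. In 2N cells MT-RNR2 had 2013, 1462 and 1678 RPKM under cytochalasin D and 1602, 1375 and 1249 RPKM under ZM447439, against 1055, 1048 and 760.4 RPKM in untreated cells. Untreated replicate 3 was the lowest library of its group in both sorts, and ZM447439 4N replicates 2 and 3 were far below replicate 1. MT-RNR2 rose in cytochalasin D 2N cells on both scales (0.85, SE 0.30, limma adjusted p = 0.0215 as deposited, 0.96 rescaled). In cytochalasin D 4N cells it passed on the rescaled scale only (0.73, SE 0.30, adjusted p = 0.0457, against 0.56, SE 0.30, limma adjusted p = 0.108). In ZM447439 2N cells the change was 0.57 (SE 0.30, limma adjusted p = 0.121) and passed on neither scale. In ZM447439 4N cells it was -0.04 with all libraries, and without the 6 libraries MT-RNR2 fell by 0.72 on the log2 scale (limma adjusted p = 2.94e-04). That p-value carries the limit given above for fits without them.

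MT-RNR1, the 12S rRNA of the small subunit, had 961, 620.3 and 834 RPKM in cytochalasin D 2N cells and 1018, 852 and 623 RPKM in ZM447439 2N cells, against 379, 536 and 833 RPKM in untreated 2N cells. The untreated libraries spanned most of the range, and both comparisons overlapped. Each passed on the rescaled scale only, at 0.63 (SE 0.24, adjusted p = 0.0351) and 0.62 (SE 0.24, adjusted p = 0.0428), against 0.52 and 0.56 as deposited. In 4N cells MT-RNR1 averaged 819 ± 86.7 RPKM under cytochalasin D and 735 ± 36.5 RPKM under ZM447439, against 701 ± 96.5 RPKM in untreated cells, and passed on neither scale. Once the 6 were left out, both rRNAs rose as deposited in 2N cells, MT-RNR1 by 0.67 and 0.69 and MT-RNR2 by 0.58 and 0.32 under cytochalasin D and ZM447439, and in cytochalasin D 4N cells MT-RNR2 was 0.04. Although both rRNAs lie next to each other on 1 precursor, the ratio of MT-RNR1 to MT-RNR2 ranged between 0.359 and 1.10 over the 18 libraries.

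Of the 22 tRNAs, which carry amino acids to the mitochondrial ribosome, 6 rose and 1 fell in cytochalasin D 4N cells, 9 rose in cytochalasin D 2N cells, 2 rose in ZM447439 4N cells and 5 rose in ZM447439 2N cells, as deposited. Rescaled, 8, 10, 2 and 6 rose and none fell. Of all genes tested 26.1%, 27.1%, 19.6% and 23.6% rose in the same order as deposited, and 34.1%, 33.6%, 25.8% and 28.2% rescaled. The tRNA counts were thus near that share or below it, except in cytochalasin D 2N cells. MT-TA, MT-TN, MT-TC and MT-TY rose in both cytochalasin D comparisons on both scales, by 0.81 to 0.96 in 4N and 0.92 to 1.04 in 2N cells as deposited, and by 0.97 to 1.13 and 1.02 to 1.15 rescaled. MT-TN, the tRNA of highest mean level, had 912, 793 and 896 RPKM in cytochalasin D 4N cells and 843, 376 and 442 RPKM in ZM447439 4N cells, against 581, 561 and 318 RPKM in untreated 4N cells. In 2N cells MT-TN had 973, 948 and 964 RPKM under cytochalasin D and 901, 641 and 699 RPKM under ZM447439, against 590.0, 521 and 344 RPKM in untreated cells. Cytochalasin D libraries were above all untreated ones in both sorts, and untreated replicate 3 and ZM447439 4N replicates 2 and 3 were again the low libraries, as for MT-RNR2. The deposited change of MT-TN was 0.88 (SE 0.29, limma adjusted p = 0.0133) in cytochalasin D 4N and 1.02 (SE 0.29, limma adjusted p = 0.00581) in cytochalasin D 2N cells. Without the 6 libraries the 4 tRNAs rose by 0.49 to 0.56 in 4N and 0.72 to 0.83 in 2N cells, and MT-CO1, at the changes given above, was higher than all 4 in 4N cells.

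The 4 tRNAs of this cluster kept close to each other: within a library the highest was between 1.04 and 1.29 times the lowest. Their mean, a summary chosen after the values had been seen, was 943, 766 and 840.2 RPKM in cytochalasin D 4N libraries and 806, 372 and 424 RPKM in ZM447439 4N libraries, against 559, 561 and 314 RPKM in untreated 4N libraries. In 2N cells it was 939, 903 and 939.7 RPKM under cytochalasin D and 857, 625 and 667 RPKM under ZM447439, against 574, 507 and 359 RPKM in untreated cells. Only the ZM447439 4N libraries overlapped with untreated ones. In ZM447439 2N cells MT-TA passed on the rescaled scale only (0.78, SE 0.31, adjusted p = 0.0466, against 0.72, SE 0.31, limma adjusted p = 0.0605), from 982, 618 and 619.7 RPKM in ZM447439 2N libraries, against 543, 464 and 334 RPKM in untreated 2N libraries, which did not overlap. In ZM447439 4N cells none of the 4 passed with all libraries, and without the 6 libraries all 4 fell, with log2 changes of -0.43 (MT-TA), -0.48 (MT-TN), -0.53 (MT-TC) and -0.53 (MT-TY), each at a limma adjusted p of 0.00243 or less. The same limit holds for these p-values. Whether the low libraries belong to the treatment or to the preparation was not tested.

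MT-TS1, the serine tRNA of the light strand and the second highest by level, passed in none of the drug comparisons. It averaged 694 ± 208, 655 ± 213, 693 ± 282 and 819 ± 64.4 RPKM in cytochalasin D 4N, cytochalasin D 2N, ZM447439 4N and ZM447439 2N cells, against 599 ± 151 and 608 ± 36.8 RPKM in untreated 4N and 2N cells (SD, n = 3 each). MT-TP, the proline tRNA next to the control region, rose on both scales under cytochalasin D, by 0.51 in 4N and 0.65 in 2N cells as deposited, and by 0.51 in ZM447439 2N cells. Rescaled, MT-TP rose by 0.67, 0.76 and 0.58. MT-TL1, the leucine tRNA that follows MT-RNR2, rose in the same 3 comparisons, by 0.32, 0.51 and 0.45 as deposited and 0.49, 0.62 and 0.52 rescaled. MT-TE, the glutamate tRNA beside MT-ND6, had 492, 804 and 814 RPKM in cytochalasin D 4N cells, against 534, 588 and 520.0 RPKM in untreated 4N cells, and 632, 715 and 759.5 RPKM in cytochalasin D 2N cells, against 521, 513 and 608 RPKM in untreated 2N cells. The 2N groups of MT-TE were apart and the 4N groups overlapped. It passed on the rescaled scale only in both (0.49, SE 0.17, adjusted p = 0.0202 and 0.47, SE 0.17, adjusted p = 0.0266, against 0.33 and 0.36 as deposited).

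MT-TK, the lysine tRNA between MT-CO2 and MT-ATP8, had 65.3, 104 and 109 RPKM in cytochalasin D 4N cells, against 75.8, 71.9 and 64.7 RPKM in untreated 4N cells, with 1 cytochalasin D library inside the untreated range, and passed there on the rescaled scale only (0.52, SE 0.16, adjusted p = 0.0113, against 0.35). In 2N cells MT-TK rose on both scales, by 0.56 under cytochalasin D and 0.57 under ZM447439 as deposited, and by 0.67 and 0.63 rescaled. MT-TT, the threonine tRNA, rose by 0.43 in cytochalasin D 2N, 0.69 in ZM447439 2N and 0.43 in ZM447439 4N cells, and by 0.54, 0.75 and 0.52 rescaled. MT-TI, the isoleucine tRNA, rose by 0.47 in ZM447439 4N cells, and by 0.56 rescaled. Further rises were those of MT-TF, the phenylalanine tRNA, in cytochalasin D 2N cells (0.96, and 1.06 rescaled) and of MT-TV, the valine tRNA, in ZM447439 2N cells (0.72, and 0.78 rescaled). With those 6 left out, the rise of MT-TT in cytochalasin D 2N cells was not called (0.24), and that of MT-TF was 0.62. The one fall was that of MT-TG, the glycine tRNA, at 17.6, 17.9 and 15.4 RPKM in cytochalasin D 4N cells, against 20.9, 48.8 and 23.1 RPKM in untreated 4N cells. It passed as deposited (-0.74, SE 0.27, limma adjusted p = 0.0241) and not rescaled (-0.58, SE 0.28, adjusted p = 0.0759). The groups of MT-TG did not overlap, and 1 untreated library was far above the rest. For tRNAs the coefficient of variation within groups averaged between 8.22% and 41.9%, where counting error alone gives 1.83% to 17.5%.

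**Figure D4:**
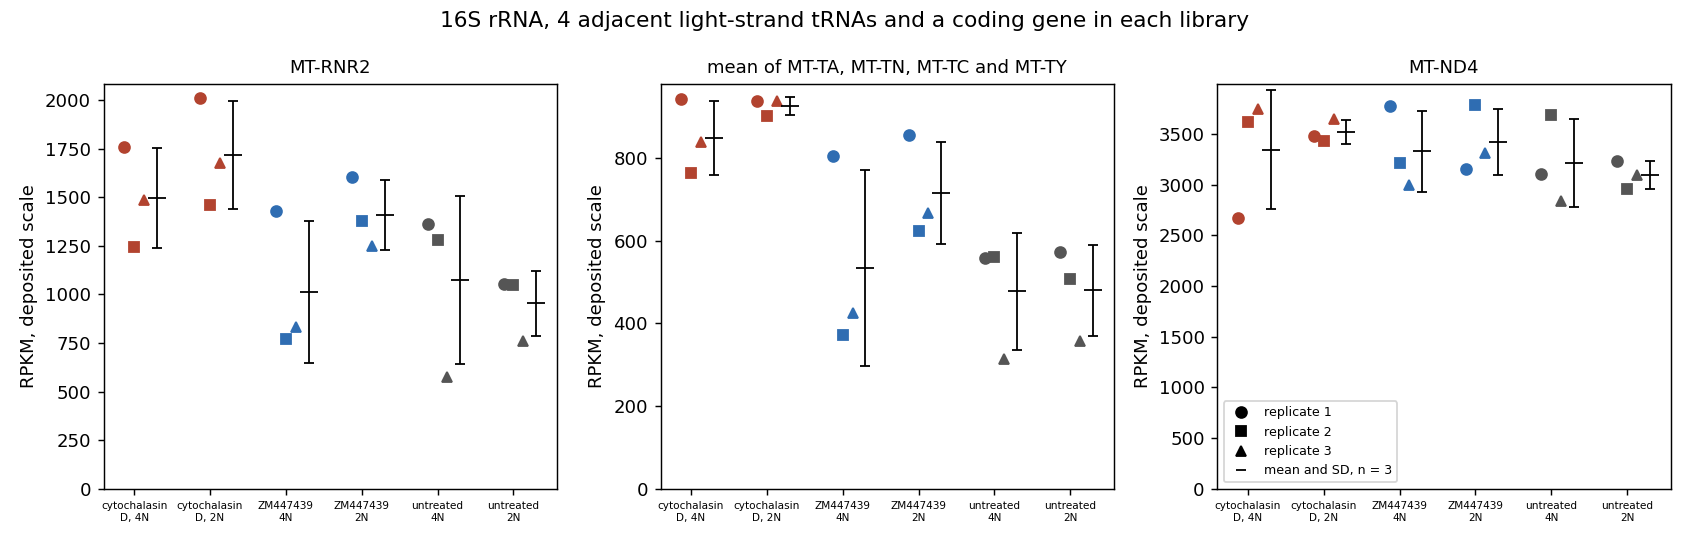
RPKM of MT-RNR2, of the mean of MT-TA, MT-TN, MT-TC and MT-TY, and of MT-ND4 in each library, with 1 point per library shaped by replicate, and the group mean with its SD (n = 3). For the rRNA and the tRNAs, untreated replicate 3 lies below the other untreated replicates in both sorts, and ZM447439 4N replicates 2 and 3 lie far below replicate 1; for MT-ND4 these gaps are smaller.

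Between the drugs few members passed the test. In 4N cells 3 members were higher under cytochalasin D than under ZM447439, MT-TC (0.74, SE 0.27, limma adjusted p = 0.0413), MT-TY (0.77, SE 0.25, limma adjusted p = 0.0201) and MT-ND6 (0.32, SE 0.10, limma adjusted p = 0.0157), and 0 lower, against 15.7% of all genes higher and 27.8% lower. Rescaled, 6 were higher and 0 lower, against 21.2% higher and 21.7% lower. MT-TA (0.82), MT-TN (0.80) and MT-TP (0.37) were the additional ones. MT-TA had 1047, 719 and 812 RPKM in cytochalasin D 4N cells, against 829.9, 383 and 399.5 RPKM in ZM447439 4N cells. MT-TP had 131, 99.8 and 106 RPKM in cytochalasin D 4N cells, against 106, 83.9 and 82.7 RPKM in ZM447439 4N cells. In both, as in MT-TN, ZM447439 replicate 1 lay within the cytochalasin D range. With the replicate number as a block, 7 were higher and 1 (MT-TI, -0.42) lower, against 18.5% and 30.7% of all genes. That block fits an effect of each number shared by all 18 libraries, and the labels do not pair the libraries of the drugs. Without ZM447439 4N replicate 1 there were 9 calls, without ZM447439 4N replicate 2 or 3 there were 0, and without cytochalasin D 4N replicate 3 there was 1. A fit of these 6 libraries alone called none of the 3 and instead MT-TG, lower under cytochalasin D (-0.60). After leaving out the 6 libraries that stood apart, 16 members were higher (22.3% of all genes).

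In 2N cells 0 members were higher and 2 lower under cytochalasin D than under ZM447439, against 13.7% of all genes higher and 23.2% lower. Both were tRNAs of few reads from the stretch between MT-ND4 and MT-ND5. MT-TL2, the second leucine tRNA, had 4.95, 12.5 and 13.6 RPKM in cytochalasin D 2N cells, against 29.8, 24.5 and 14.7 RPKM in ZM447439 2N cells (-1.17, SE 0.41, limma adjusted p = 0.0376 as deposited). MT-TS2, the second serine tRNA, had 8.39, 18.2 and 19.9 RPKM in cytochalasin D 2N cells, against 37.1, 32.9 and 20.6 RPKM in ZM447439 2N cells. Neither pair of groups overlapped, though the margins were narrow. MT-TS2 passed as deposited (-0.99, SE 0.37, limma adjusted p = 0.0498) and not rescaled (-0.95, SE 0.37, adjusted p = 0.0633), which left 1 member lower and 0 higher, against 18.5% and 17.2% of all genes. The block gave 3 lower (26.2% of all genes). A fit of these 6 libraries alone called neither and instead MT-TC (0.43) and MT-TY (0.42), both higher under cytochalasin D. Without cytochalasin D 2N replicate 1 or 2 there was 1 call, and without ZM447439 2N replicate 1 or 2 there were 0. After leaving out the 6 libraries that stood apart, 4 were higher (MT-TA, MT-TN, MT-TC and MT-TY, by 0.48 to 0.53) and 2 lower (18.6% and 31.9% of all genes).

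With all libraries and no replicate block, 0 of 37 members passed limma's test between 4N and 2N cells on either scale, under either drug or in untreated cells, and at an unadjusted p under 0.05 there were 0 under cytochalasin D, 1 under ZM447439 and 0 in untreated cells. Of all genes tested, 0% were higher and 0% lower in cytochalasin D 4N cells, 5.21% and 2.45% in ZM447439 4N cells, and 12.9% and 4.55% in untreated 4N cells. Rescaled, the pairs were 0% and 0%, 4.4% and 3.4%, and 8.87% and 5.98%. With the replicate number as a block, 4 light-strand tRNAs were lower in ZM447439 4N than in ZM447439 2N cells, MT-TA (-0.52), MT-TN (-0.51), MT-TY (-0.49) and MT-TP (-0.21), against 7.06% of all genes. Block and rescaling together called 5. MT-TA had 829.9, 383 and 399.5 RPKM in ZM447439 4N cells, against 982, 618 and 619.7 RPKM in ZM447439 2N cells, lower in 3 of 3 same-numbered pairs though the groups overlapped. Without ZM447439 2N replicate 1 there was 1 call and without ZM447439 4N replicate 1 there were 3. Over the remaining 12 libraries, 13 members were lower in ZM447439 4N cells (19.8% of all genes lower). In the same setting 4 were higher in untreated 4N cells (MT-TF, MT-TV, MT-RNR1 and MT-RNR2; 22% of all genes higher). Without untreated 2N replicate 3 alone, 1 member passed in untreated cells.

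Whether the 4N against 2N difference itself depended on the drug was tested as an interaction. For cytochalasin D against untreated, ZM447439 against untreated and cytochalasin D against ZM447439, 0 of 37 members passed limma's test on either scale without a block, and 0, 0 and 0 had an unadjusted p under 0.05. The shares of all genes with a more positive and a more negative difference were 1.8% and 6.04% for cytochalasin D, 3.52% and 6.58% for ZM447439, and 0% and 0% between the drugs. Rescaled, they were 2.4% and 4%, 4.14% and 4.98%, 0% and 0%. With the replicate number as a block, MT-TP had a more negative difference under ZM447439 than in untreated cells (-0.31, limma adjusted p = 0.0353; 12.6% of all genes), and without ZM447439 2N replicate 1 there was also 1 call. In the other 12 libraries, 2, 14 and 5 members passed in these tests, where 21.2%, 37.4% and 12.4% of all genes did.

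Of the nuclear genes that serve the mitochondrial genome, most that were tested fell under both drugs. Of 62 listed genes for transcription, RNA processing, translation and copying of mitochondrial DNA, 45 passed the filter. Against untreated cells of the same sort 3 rose and 37 fell in cytochalasin D 4N, 3 rose and 37 fell in cytochalasin D 2N, 1 rose and 27 fell in ZM447439 4N and 2 rose and 31 fell in ZM447439 2N cells. Their median log2 changes were -0.37, -0.35, -0.22 and -0.25. Of all genes tested 26.1%, 27.1%, 19.6% and 23.6% rose and 44.4%, 39.5%, 35.5% and 32.5% fell in these comparisons, with the medians given above. Rescaled, the counts that rose and fell were 5 and 32, 5 and 34, 2 and 24, and 3 and 29, and without the 6 libraries 4 and 35, 5 and 36, 3 and 28, and 2 and 32. Changes of single nuclear genes below are as deposited unless a scale is named. MTERF4, which acts in assembly of the mitochondrial ribosome, rose by 1.11, 1.20, 0.19 and 0.35 in the same order. MTIF3, a translation initiation factor, rose by 0.28 and 0.37 under cytochalasin D and 0.21 in ZM447439 2N cells, and MTERF2 by 0.23 and 0.18 under cytochalasin D. Among the 3 largest falls of a comparison were those of TRMU, a tRNA-modifying enzyme (-1.12 in cytochalasin D 4N and -0.85 in ZM447439 4N cells), PPRC1, a coactivator (-1.11 and -1.18 under cytochalasin D and -0.90 in ZM447439 2N cells) and C1QBP, a matrix protein (-1.05 and -1.20 under cytochalasin D). MRM2, which methylates the 16S rRNA, was among the 3 largest falls in 2N cells (-0.98 under cytochalasin D and -0.77 under ZM447439). TFAM, which packages and transcribes mitochondrial DNA, was so under ZM447439 (-0.63 in 4N and -0.74 in 2N cells). MGME1, a nuclease of mitochondrial DNA replication, was so in ZM447439 4N cells (-0.67). Falls are given only where a gene was among these 3, and its changes in the other comparisons are not given here.

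Nuclear genes often taken as markers of mitochondrial mass mostly fell as well. Of 22 listed, 21 passed the filter. Against untreated cells 0 rose and 19 fell in cytochalasin D 4N, 0 and 19 in cytochalasin D 2N, 0 and 17 in ZM447439 4N and 0 and 16 in ZM447439 2N cells, beside the same shares of all genes. The medians were -0.60, -0.53, -0.32 and -0.31. Rescaled, 18, 19, 15 and 16 fell, and 1 rose, in ZM447439 2N cells (COX4I1, 0.13). Once the 6 were left out, 19, 19, 16 and 17 fell and none rose. Among the 3 largest falls of a comparison were those of TOMM40, the import pore (-1.73, -1.66, -1.03 and -1.24), HSPD1, the matrix chaperonin (-1.48, -1.59, -0.67 and -1.12), CYCS, cytochrome c (-1.84, -1.43 and -0.82 in the first 3 comparisons), and CS, citrate synthase (-0.66 in ZM447439 2N cells). Between 4N and 2N cells 3 genes of the first list rose and 0 fell under ZM447439, and 4 rose and 2 fell in untreated cells. Of the mass list 5 and 3 rose and none fell. The shares over all genes were 5.21% higher and 2.45% lower in ZM447439 4N cells, and 12.9% and 4.55% in untreated 4N cells. Rescaled, 1 rose and 0 fell of the first list under ZM447439, and 3 rose and 3 fell in untreated cells. Of the mass list 3 and 1 rose and none fell, beside 4.4% and 8.87% of all genes higher. Without the 6 libraries the ZM447439 counts were 18 that rose and 1 that fell of the first list, and 14 and 0 of the mass list. The untreated counts were 6 and 4, and 5 and 0, where 22% of all genes were higher. Under ZM447439 19.8% were lower in that setting, and the share that was higher is not given here. These are RNA levels, and no measure of mitochondrial mass or DNA copy number was made.

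**Figure D5:**
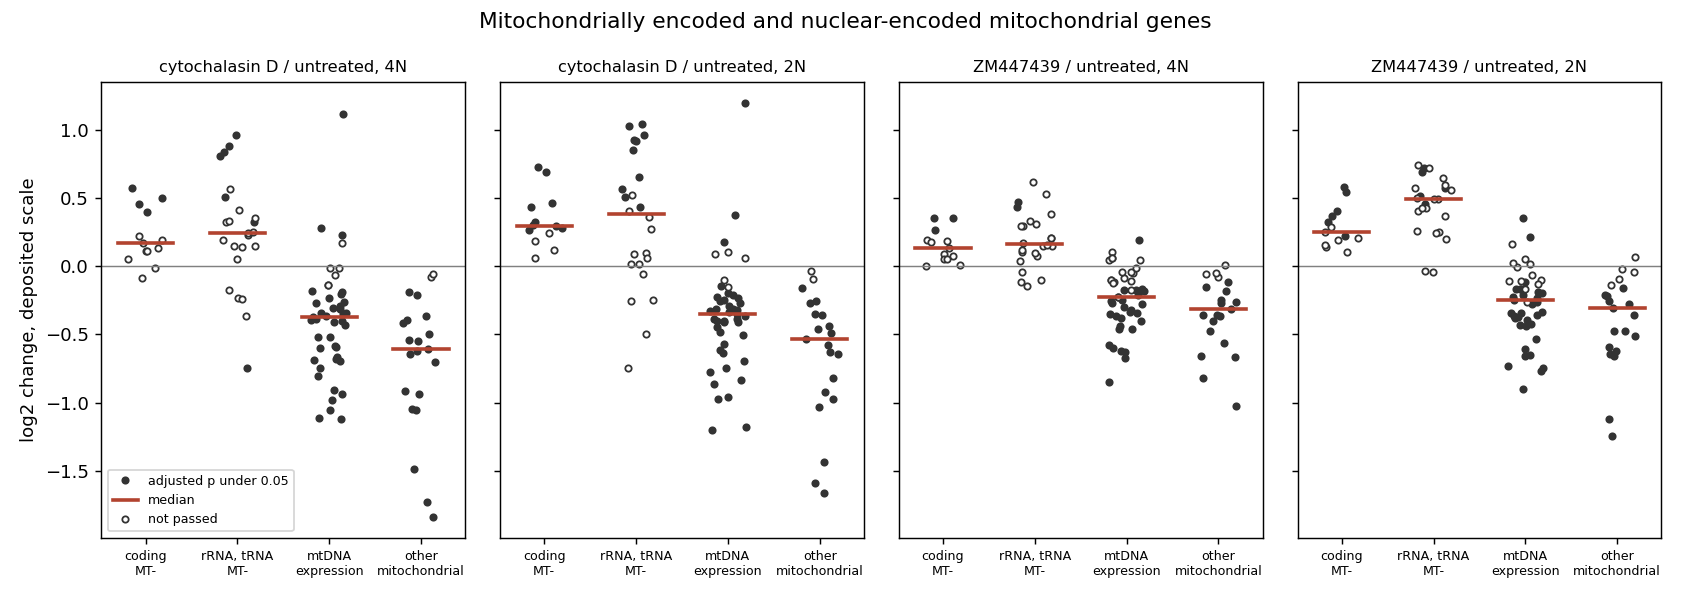
Log2 change of each gene against untreated cells of the same sort, as deposited, for the coding members, the rRNA and tRNA members, the nuclear genes of mitochondrial DNA expression and those taken for mitochondrial mass, with 1 point per gene (filled where it passed the test) and a line at each median. The medians of both groups of members are above 0 and those of both nuclear lists below 0 in all 4 comparisons.

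Nuclear copies of mitochondrial sequence share reads with the members. Of 402 rows named as such copies, 27 passed the filter, and their recovered reads came to between 16.4% and 18.0% of the member reads of a library. MTCO1P12 had between 0.338 and 0.368 times the RPKM of MT-CO1, MTATP6P1 between 0.339 and 0.350 times that of MT-ATP6, and MTCO3P12 between 0.357 and 0.372 times that of MT-CO3 in the 18 libraries. Each copy thus kept a near-constant ratio to its member. Of the 27, 7 rose in cytochalasin D 4N, 16 in cytochalasin D 2N, 3 in ZM447439 4N and 8 in ZM447439 2N cells, and none fell. Of all genes 26.1%, 27.1%, 19.6% and 23.6% rose in these comparisons. Rescaled, 11, 20, 5 and 10 of the copies rose and none fell, beside 34.1%, 33.6%, 25.8% and 28.2% of all genes that rose. With those 6 left out, 11, 18, 1 and 17 of the copies rose, beside 29.5%, 32.1%, 25.5% and 32.3% of all genes. In ZM447439 4N cells 8 copies fell in that setting, beside 40% of all genes. The levels of the members that have such copies are uncertain to the extent that the counting divided reads between them.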

How the data were processed

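Poly(A) RNA of sorted RPE1 cells was sequenced from 18 libraries, 3 in each of 6 groups taken from the labels. The authors deposited RPKM values per gene for hg19; CASAVA 1.8.2, TopHat2 and edgeR are named per the submitters' processing notes, and the read counter, its handling of shared reads and the RPKM denominator are not given in the sources used here. The deposited genome build was not at hand, so gene lengths, order and strand came from GENCODE 29 (GRCh38) and no coordinates are given. RPKM times gene length (full span, introns included) times an implied library size (51135642 to 78294394) gave whole reads for all 666 member values, within 0.05 reads. Over all genes, 90.7% to 91.1% of the values under 100 reads in a library did so. The depth behind a value is those reads, and counting error covers only part of the spread. Genes averaging 0.5 RPKM or more were tested (13037 of 57773) with limma 3.58.1 (trend) in R 4.3.3 on log2(RPKM + 0.5), a scale that understates changes of low genes, with 6 group means and Benjamini-Hochberg adjustment over all tested genes, in 9 comparisons of groups and 3 interactions. Median rescaling divided each library by the median ratio of its tested genes to their geometric mean. Shares and ratios were compared by exact two-sided permutation tests, where 3 against 3 cannot go below 0.1; these are uncorrected. The scripts were tested on simulated data; Python 3.11.15 was used. The members, gene lists and summaries were chosen with earlier results of these data known. Coding genes and rRNAs are all named; library values are given for the highest and lowest of each class, MT-ND6 and members whose call differs between scales. Of the tRNAs the 3 highest and up to 6 that passed per comparison are named, and MT-TF, MT-TK and MT-TT in cytochalasin D 2N cells were added after their values were seen. Of the nuclear lists the 3 largest changes per direction are named. Libraries of the same replicate number deviated together between sorts (correlation 0.325 to 0.632 under cytochalasin D, 0.261 to 0.441 under ZM447439, 0.192 to 0.450 untreated) and between the drugs (0.231 to 0.523). Libraries of other numbers reached up to 0.385, 0.323 and 0.258 between sorts and 0.343 between the drugs, so the ranges overlap. Same-numbered libraries did not all deviate together between drug and untreated cells (-0.206 to 0.281). The labels call the replicates biological and say no more, so p-values measure the spread between these samples. Alternatives were another scaling, pseudocount or filter, per-million values, the groups' own libraries, the replicate block, and leaving out libraries.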

Additional observations from a re-analysis of the deposited data

How the results depend on the processing

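All 37 members passed the filter in every setting, and the limits are library spread and scaling rather than depth, except for tRNAs of few reads. The member calls below are to be read beside those of all libraries as deposited. Shares of all genes stand in the results beside most deposited and rescaled counts and those without the 6 libraries. For most other settings no such share is given, so those counts do not set the members against other genes. In cytochalasin D 4N against untreated cells there were 18 rescaled, 19 scaled to the sum of all other genes, 17 without the 6 libraries that stood apart and 24 with those left out and rescaling, in place of 11. In cytochalasin D 2N against untreated cells quantile normalisation gave 9 in place of 19, with MT-CYB at -0.10 and MT-ND3 at -0.0098. In ZM447439 2N against untreated cells there were 6 with quantile normalisation, 25 without the 6 libraries and 27 without them and rescaled, in place of 11. In ZM447439 4N against untreated cells there were 12 scaled to other genes, 0 with no filter on low values, 13 without the 6 libraries and 17 without them and rescaled, in place of 5. In 4N cells cytochalasin D against ZM447439 gave 6 rescaled, 5 scaled to other genes, 1 with no filter, 5 on per-million values, 16 without the 6 libraries and 20 without them and rescaled, in place of 3. A fit of the 2 groups' own libraries gave 1 member, lower, where the 3 were higher. In 2N cells cytochalasin D against ZM447439 gave 1 rescaled, 0 with quantile normalisation, 1 scaled to other genes, 1 with a pseudocount of 0.1, 0 with no filter, 6 without the 6 libraries and 7 without them and rescaled, in place of 2. The groups' own libraries gave 2 that were higher, where the 2 were lower. For 4N against 2N there were 13 without the 6 libraries and 14 without them and rescaled under ZM447439, and 4 without them in untreated cells, in place of 0. As deposited without them, 19.8% of all genes were lower under ZM447439 and 22% higher in untreated cells. The interactions gave 2 without the 6 libraries and 1 without them and rescaled for cytochalasin D, 14 and 12 for ZM447439, and 5 and 7 between the drugs, in place of 0. Of all genes 21.2%, 37.4% and 12.4% passed as deposited without them, near the member share for ZM447439 and between the drugs. The cause of these shifts was not tested, and leaving out the 6 libraries of largest deviation keeps 2 per group and narrows the spread. With the replicate block, calls against untreated cells were 12 (cytochalasin D 4N), 19 (cytochalasin D 2N), 5 (ZM447439 4N) and 16 (ZM447439 2N), and 20, 9 and 21 with block and rescaling in cytochalasin D 4N, ZM447439 4N and ZM447439 2N cells. Between drug and untreated cells the replicate numbers do not pair. Between sorts the block paired libraries of the same treatment and number, which the labels do not call pairs. Against untreated cells and between the drugs it fitted an effect of each number shared by all 18 libraries. The block gave 8 (8 rescaled) and 3 between the drugs in 4N and 2N cells. It gave 4 (5 rescaled) for ZM447439 4N against 2N and 1 for its interaction. No other call count between sorts or between the drugs changed past 1.5 times. Leaving out 1 library at a time gave 7 to 16, 13 to 19, 1 to 4 and 8 to 13 calls in cytochalasin D 4N, cytochalasin D 2N, ZM447439 4N and ZM447439 2N against untreated cells, 0 to 9 and 0 to 2 between the drugs in 4N and 2N cells, 0 to 0, 0 to 3 and 0 to 1 between sorts in cytochalasin D, ZM447439 and untreated cells, and 0 to 0, 0 to 1 and 0 to 0 for the interactions. Fits without a filter tested more genes. The libraries behind the lowest and highest counts against untreated cells in cytochalasin D 4N, and the lowest in the others, are named in the results.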
